A study of Rattus norvegicus with 27 samples.

Results

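The cerebellins are small secreted proteins that link the 2 sides of a synapse. The 7 genes described here were chosen by their symbols in the deposited table: the cerebellins Cbln1, Cbln2, Cbln3 and Cbln4, the delta glutamate receptor gene Grid1, and the neurexin genes Nrxn2 and Nrxn3. All 7 were found among the 17321 genes of the table. In the fit of all rats together all 7 had enough counts to be tested, with 12107 genes in all. Messenger RNA had been sequenced from punches of the cerebellar interpositus nucleus, 1 of the deep nuclei through which the cerebellar cortex sends its output, in Long-Evans rats killed on postnatal day 70. The rats were 5 females and 7 males reared normally (no treatment, NT), and 7 females and 8 males reared on limited bedding (LB), meaning that from postnatal day 2 until day 9 the nest of the litter was kept short of material. No transgene, drug or surgery is given in the labels, which set the groups apart by sex and rearing.

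Cbln1 is made by cerebellar granule cells and released from their parallel fibres, where it binds neurexins and joins the fibre to the Purkinje cell. Cbln3 joins Cbln1 in mixed complexes and needs it to leave the cell, whereas Cbln2 and Cbln4 are known from neurons of several regions outside the cerebellar cortex. Grid1 encodes GluD1, a delta glutamate receptor that cerebellins also bind. Nrxn2 and Nrxn3 encode presynaptic adhesion receptors, and cerebellins bind those neurexin forms that carry a particular spliced insert, which gene counts do not resolve. Grid1 was the single delta receptor gene among the 7.

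The counts of a rat summed to between 11836684 and 24169170 (median 16034036), so that a floor of 3 counts lay between 0.124 and 0.253 CPM, counts per 1000000 counts of the library. Floors cover counting error only, whereas the 95% intervals of log2 fold changes given below rest on the spread between rats. The Y-linked gene Eif2s3y matched the labelled sex in all 27 rats. It was lowest among males in NT male 3113, at 28.65 CPM, where the next NT male (4111) had 85.35 CPM. The cause of this low value was not tested. Markers of granule cells were high in every rat (Gabra6, a granule cell GABA receptor subunit, at 193 CPM or more), whereas Slc17a6, the vesicular glutamate transporter of excitatory deep nucleus neurons, had a median of 2.77 CPM and reached 380 CPM in 1 NT male. Lhx2, a transcription factor gene of the forebrain, was at most 2.96 CPM in females and reached 45.2 CPM in males. The forebrain list as a whole was not higher in males. Its sum had a median of 457 CPM in NT females and 414 in NT males, and of 476 in LB females and 470 in LB males. Neurod2, another gene of that list, was at 47.9 CPM or more in every rat. Hindbrain Hox genes were at or near 0, with 8 genes summing to at most 1.39 CPM in any rat. In bulk tissue, fewer cells of a type and less RNA per cell cannot be told apart. The labels name each rat by a number, and rats whose numbers share all but the last digit (10 sets) were of the same sex and rearing, so sets cannot be told apart from groups. Nothing in the labels says whether sets are litters or cages.

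Levels of the 7 genes spanned several orders of magnitude. Per kilobase of exon, the median over 27 rats was 707 CPM for Cbln1, 159 CPM for Cbln3, 121 CPM for Nrxn2, 42.7 CPM for Nrxn3, 3.54 CPM for Grid1, 0.331 CPM for Cbln2 and 0.187 CPM for Cbln4. Cbln1 was above Cbln3 in 27 of 27 rats, by 1.61 to 7.43 times. Cbln3 was above Nrxn2 in 21 of 27 rats, Grid1 above Cbln2 in 22 and Cbln2 above Cbln4 in 21, so these neighbours changed places in some rats. Nrxn2 was above Nrxn3, and Nrxn3 above Grid1, in every rat. The cerebellin RNA of these punches was thus mostly Cbln1 and Cbln3: on the same per-kilobase scale, Cbln2 and Cbln4 together made up 0.0296% to 0.0779% of the 4 cerebellins in NT females, 0.0259% to 0.0908% in LB females, 0.0133% to 6.18% in NT males and 0.00683% to 3.65% in LB males. The lowest and the highest shares were both found in males.

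**Figure D1:**
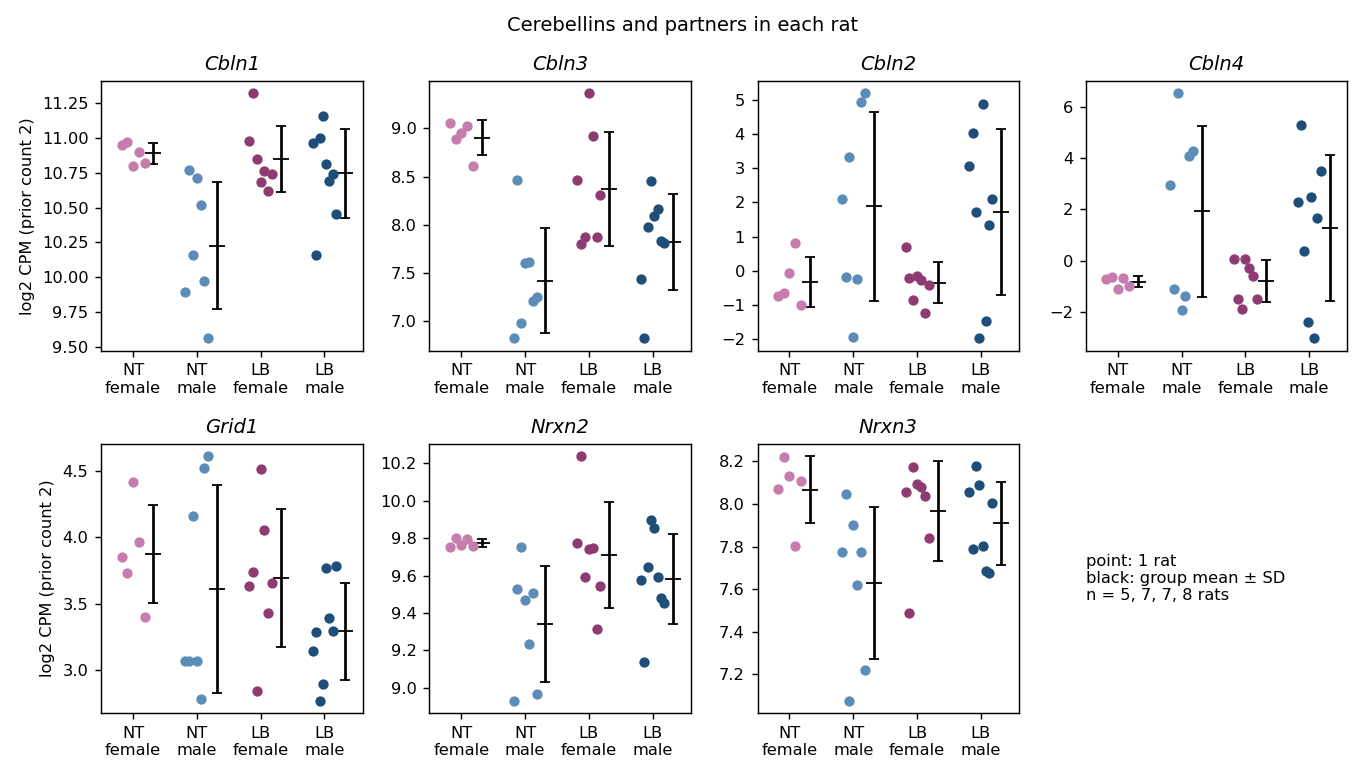
Level of each gene in each rat as log2 CPM, with 1 panel for each gene and its own axis. Coloured points are single rats in the 4 groups, and the black mark with bars is the group mean ± SD (n = 5, 7, 7 and 8 rats); Cbln1 and Cbln3 of NT males lay below all 5 NT females, and Cbln2 and Cbln4 were spread over the widest range in males.

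Between NT males and NT females, Cbln1 and Cbln3 were lower in males, and Cbln2 and Cbln4 were higher in males on average. These 4 of the 7 genes passed the test of edgeR at an adjusted p of 0.05, where 15.2% of all 12107 genes did (10.1% higher and 5.08% lower in males). Under an unadjusted p of 0.05 in edgeR were 6 of 7, beside 4004 of all 12107 genes. The share of all genes without overlap between the NT sexes was not computed. Over both rearing conditions 5 of 7 passed, the same 4 genes and Nrxn2, where 29.3% of all genes did (16.9% higher and 12.4% lower). Between LB males and LB females none of the 7 passed by the same test, where 0.248% of all genes did. In that comparison 3 of 7 were under an unadjusted p of 0.05 in edgeR, beside 2053 of all 12107 genes. DESeq2 called 2 of these 3 (Cbln2 and Cbln4) among 408 genes in all, and limma-voom 0 among 28. Without LB female 5022, edgeR called 1059 genes in all, with 1 of the 7 (Cbln2) among them.

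Cbln1 lies on rn6 chromosome 19 (20607507 to 20611316, 3 exons). In NT females it was at 1984, 2009, 1786, 1915 and 1804 CPM (mean 1900 ± 102, SD, n = 5). In NT males it ranged from 755 to 1748 CPM with a median of 1144 (mean 1249 ± 383, n = 7). All 7 NT males were below all 5 NT females, and the females lay much closer together. The log2 fold change was -0.60 (SE 0.179, edgeR adjusted p = 0.0271), or 1.52-fold lower in males. An exact two-sided permutation test on the mean log2 CPM gave an unadjusted p = 0.00253, the smallest that 7 against 5 rats allow. The call was borderline in edgeR: leaving out any 1 of 7 rats (NT females 1011, 1013, 2011 and 2012, NT males 3111, 6111 and 6112) moved the adjusted p to between 0.0509 and 0.0642, with log2 fold changes of -0.70 to -0.51 over all rats left out.

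In LB rats the sexes overlapped for Cbln1. LB females ranged from 1578 to 2557 CPM (median 1729) and LB males from 1144 to 2288 CPM (median 1758). Males differed by a log2 fold change of -0.09 (SE 0.160, edgeR adjusted p = 0.798), with a 95% interval of -0.42 to 0.24. Between rearing conditions, Cbln1 was 0.49 higher on the log2 scale in LB than in NT males (SE 0.161, unadjusted p = 0.004995, edgeR adjusted p = 0.462). Of the 8 LB males 4 were above all 7 NT males and none was below them all. The difference between the sex effects of NT and LB rats was 0.52 (SE 0.241, unadjusted p = 0.0415, adjusted p = 0.9998 in edgeR), so a sex effect that differs by rearing did not pass the correction.

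Cbln3 (chromosome 15, 34548540 to 34550850, minus strand, 4 exons) had the largest of the decreases. It was at 532, 473, 495, 520 and 389 CPM in NT females (mean 482 ± 56.5, n = 5) and ranged from 113 to 353 CPM, median 153, in NT males (mean 183 ± 81.0, n = 7). Again all 7 NT males were below all 5 females. The highest male, 3112, stood apart from the other 6, of which the next was at 195 CPM. Cbln3 had a log2 fold change of -1.40 (SE 0.278, edgeR adjusted p = 0.00961) by sex, 2.63-fold lower in males, which stayed under the threshold without any 1 of the 27 rats (-1.64 to -1.31). The exact permutation p was 0.00253.

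In LB rats, Cbln3 ranged from 223 to 659 CPM (median 317) in females and from 114 to 350 CPM (median 240) in males. Only 2 of the 8 males were below all 7 females. The log2 fold change of -0.59 (SE 0.247) had an edgeR adjusted p of 0.219 and an exact permutation p of 0.0749. The sex effects of LB and NT rats differed by 0.80 (SE 0.373, unadjusted p = 0.0401, adjusted p = 0.9998 in edgeR), which did not pass.

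Cbln3 was lower in NT males by more than Cbln1, so the proportion of the 2 genes within a library also differed. Per kilobase, the ratio of Cbln3 to Cbln1 was 0.334 to 0.429 in NT females (median 0.415) and 0.171 to 0.313 in NT males (median 0.206), with no overlap. Such a ratio does not depend on library scaling. The male mean minus the female mean of the log2 ratio was -0.82 (p = 0.00253 in an exact permutation test, two-sided, over 7 and 5 rats). In LB rats the ratio was 0.135 to 0.620 in females and 0.135 to 0.268 in males, a difference of -0.45 (p = 0.151 by the same exact test). The ratio was examined after the values had been seen.

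Cbln2 (chromosome 18, 83776477 to 83782930, 4 exons) was near the floor in females and reached high values in part of the males. NT females were at 0.482, 0.517, 0.837, 1.63 and 0.379 CPM, from 6 to 32 counts (mean 0.769 ± 0.511, n = 5). NT males were at 36.3 CPM (rat 6112), 30.2 (6111), 9.94 (3113), 4.16 (3111), 0.757 (3112), 0.733 (4113) and 0.140 (4111), so 4 of the 7 were above all 5 females and 1 was below them all. LB females ranged from 0.302 to 1.49 CPM (median 0.706), while LB males ranged from 0.133 to 29.3 CPM (median 3.67), and 6 of the 8 were above all 7 LB females. The mean of the NT males (11.8 ± 15.2) had an SD larger than itself.

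The fitted log2 fold change of Cbln2 was 3.90 (SE 1.14, edgeR adjusted p = 0.0253) in NT rats and 3.45 (SE 0.970, adjusted p = 0.0978) in LB rats. The exact permutation test on mean log2 CPM gave p = 0.121 in NT and p = 0.0488 in LB rats, unadjusted. The edgeR call in NT rats was lost without any 1 of 5 rats (NT females 1011, 1013, 2011 and 2013, NT male 6112; adjusted p 0.0557 to 0.0671), and limma-voom did not call it (2.30, adjusted p = 0.292).

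Cbln4 (chromosome 3, 170033166 to 170040953, minus strand, 3 exons) had the widest range of all 7 genes on the log2 scale. NT females were at 0.482, 0.517, 0.345, 0.509 and 0.379 CPM, from 6 to 10 counts (mean 0.446 ± 0.0794, n = 5). NT males were at 92.5 CPM (3113), 19.1 (6112), 16.8 (6111), 7.72 (3111), 0.344 (3112), 0.267 (4113) and 0.140 (4111). The 7 NT males lay on both sides of the females, 4 above all 5 and 3 below all 5. A like spread was seen after limited bedding. LB females ranged from 0.145 to 0.935 CPM (median 0.543), 6 of 8 males were above all of them (highest 39.3 CPM, rat 122), and 2 were below, rat 7121 with 1 count and rat 9121 with 0 counts, which allows up to 0.178 CPM.

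The fitted log2 fold change of Cbln4 was 5.44 (SE 1.44, edgeR adjusted p = 0.0181) between NT males and females and 3.90 (SE 1.16, adjusted p = 0.109) between LB males and females. On the mean log2 CPM the exact permutation p was 0.141 in NT and 0.0839 in LB rats. Limma-voom did not call it in NT rats (2.91, adjusted p = 0.293), whereas DESeq2 did (5.46, adjusted p = 0.00035). Leaving out each rat in turn kept the edgeR value under the threshold (4.03 to 5.69), but without both NT males 3113 and 6112 it was 3.47 with an adjusted p of 0.0848.

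**Figure D2:**
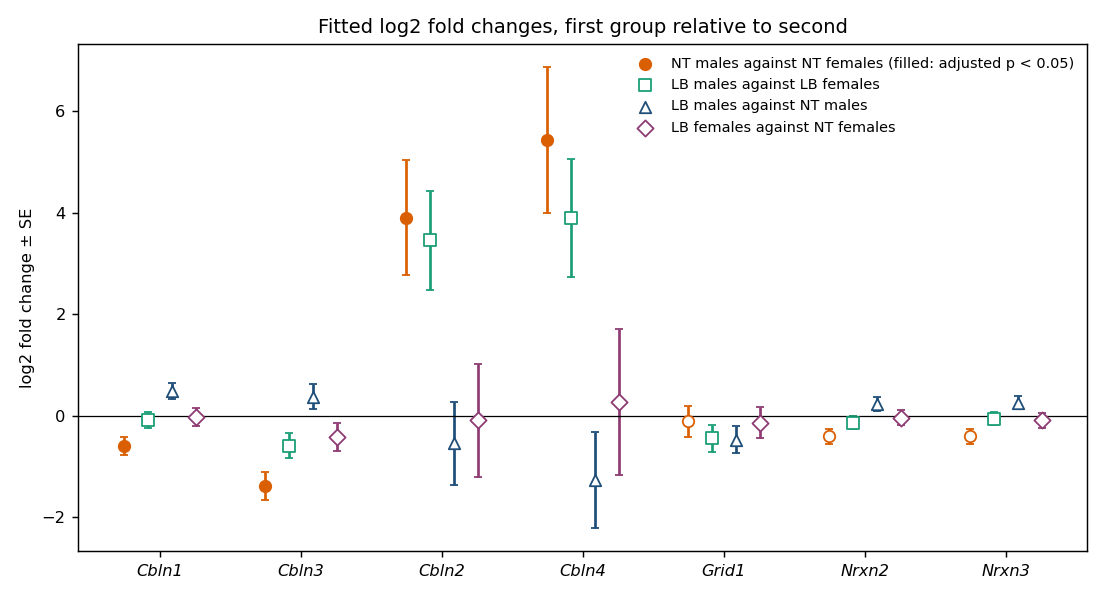
Fitted log2 fold change ± SE (vertical axis) of each gene in 4 comparisons. Filled symbols mark an adjusted p under 0.05 in edgeR, which 4 genes reached between NT males and NT females and none reached in the other 3 comparisons; Cbln2 and Cbln4 lie above 3 in both sex comparisons with wide errors.

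Cbln2 and Cbln4 were high in the same rats. Pearson's r of their log2 CPM was 0.89 over 27 rats (Spearman's rho 0.87, permutation p = 1e-05 for both, the smallest that 100000 resamples can give, 0.000105 after adjustment over 21 pairs). It was 0.86 after each group was centred on its mean, 0.88 without the 2 rats farthest from the median of Cbln2, 0.89 in NT males, 0.88 in LB males and 0.48 in LB females, whose counts were low. NT females, with 5 rats, are not given an r. The proportions still differed from rat to rat. Per kilobase, the ratio of Cbln4 to Cbln2 ran from 0.295 to 7.56 in NT males (median 0.450, highest in rat 3113), while LB male 7122 had 29.3 CPM of Cbln2 beside 5.45 CPM of Cbln4.

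Of the 7 genes, 2 had an entry in the sequence table used, Cbln2 and Cbln4. The 250 bases before the start of each are shown from RefSeq on the GRCr8 build, a different build from that of the counts. Capitals mark matches on either strand to the motifs searched. These were the GC box, spelled GGGCGG, which transcription factors of the Sp family bind. The inverted or forward CAAT box was searched as CCAAT, which the factor NF-Y binds. The E-box of basic helix-loop-helix factors was searched as CANNTG, which reads alike on both strands. The TATA box was searched in the form TATAAA. The site of Meis homeodomain factors was searched in the form TGACAG. Cbln2 stands at chr18:82215953-82216202 on the plus strand and Cbln4 at chr3:181225601-181225850 on the minus strand, each written 5′ to 3′ along the gene.
Cbln2: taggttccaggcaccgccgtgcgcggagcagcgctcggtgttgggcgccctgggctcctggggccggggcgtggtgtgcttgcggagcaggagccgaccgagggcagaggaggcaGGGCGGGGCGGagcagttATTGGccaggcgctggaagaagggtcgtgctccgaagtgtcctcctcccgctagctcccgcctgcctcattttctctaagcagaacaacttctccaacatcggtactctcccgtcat
Cbln4: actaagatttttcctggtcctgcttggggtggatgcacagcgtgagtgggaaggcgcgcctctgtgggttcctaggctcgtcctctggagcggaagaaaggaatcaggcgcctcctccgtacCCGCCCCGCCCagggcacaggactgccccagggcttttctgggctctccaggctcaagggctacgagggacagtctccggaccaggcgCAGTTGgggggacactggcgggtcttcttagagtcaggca

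Each window held 2 GC boxes that overlap by a base, on the plus strand in Cbln2 (from base -135 and from base -130) and on the minus strand in Cbln4 (from base -128 and from base -123). A GC box was present in 30.5% of 33469 promoters of this length. Cbln2 also had a CAAT box on the minus strand (base -117; 34.0% of promoters) and Cbln4 an E-box (base -40; 65.5%). Neither window held TATAAA (12.9%) or TGACAG (15.8%). GC content was 66.0% and 63.2%, beside a median of 51.2% over all promoters. These matches are descriptions of the sequence only.

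Over all rats Cbln1 and Cbln3 varied together as well, and opposite to the other pair, but not in LB females. Cbln1 and Cbln3 had r = 0.63 (rho 0.54, adjusted permutation p = 0.00155 for r), which fell to 0.43 when groups were centred, and was 0.55 without the 2 rats farthest from the median. It was 0.74 in NT males, 0.72 in LB males and -0.42 in LB females. Most signs across the pairs also turned in LB females, where r was 0.42 for Cbln1 with Cbln2, 0.44 for Cbln2 with Cbln3 and 0.73 for Cbln3 with Cbln4. For Cbln1 with Cbln4 it stayed negative there (-0.33). LB female 5022 had the highest Cbln1 and the lowest Cbln3 of the 7 LB females, and r without this rat was not computed. Cbln1 against Cbln4 gave r = -0.71 (rho -0.48, adjusted p = 0.00063 for r), and -0.68 both with centred groups and without the 2 farthest rats. Cbln3 against Cbln4 gave -0.64 (rho -0.44, adjusted permutation p = 0.00155 for r and 0.0523 for rho), which was -0.51 with centred groups. Of the 21 pairs among the 7 genes, 12 passed the adjustment for r, 6 positive and 6 negative, and 8 passed for rho. The part of tissue composition in these r values was not tested.

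**Figure D3:**
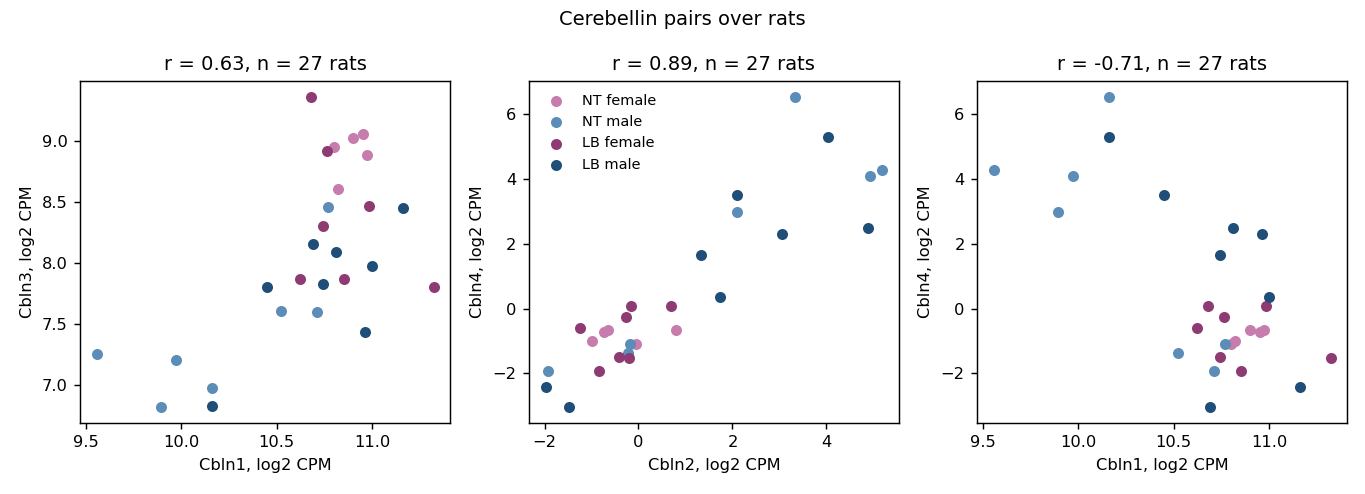
Cbln1 against Cbln3, Cbln2 against Cbln4 and Cbln1 against Cbln4, each as log2 CPM on both axes with 1 point per rat, coloured by group. Pearson's r is 0.63, 0.89 and -0.71 over 27 rats; the points high in Cbln2 and Cbln4 are all males, and they reach down to the lowest values of Cbln1.

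The receptor gene Grid1 (chromosome 16, 11170831 to 11932197, 17 exons) did not pass the test in any comparison. It was at 14.3, 13.2, 21.3, 15.5 and 10.4 CPM in NT females, and ranged from 6.73 to 24.4 CPM (median 8.26) in NT males. The NT males were on both sides of the females, 4 of 7 below all and 2 above all. Grid1 had a log2 fold change of -0.11 (SE 0.305, edgeR adjusted p = 0.816), with a 95% interval of -0.75 to 0.52. In LB rats the median was 12.5 CPM in females and 9.66 CPM in males (log2 fold change -0.45, SE 0.271, adjusted p = 0.403, 95% interval -1.01 to 0.11). In NT males Grid1 was highest in the rats richest in Cbln2, 6112 (24.4 CPM), 6111 (22.9) and 3113 (17.8), and its r with Cbln2 over those 7 rats was 0.90. Over all 27 rats that r was 0.36 (rho 0.35, adjusted permutation p = 0.0941 for r) and did not pass.

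The neurexin genes were abundant and had the smallest spread of the 7 genes over all rats. The SD of log2 CPM was 0.289 for Nrxn2 and 0.286 for Nrxn3, beside 0.40 for Cbln1. Over all rats Nrxn2 ran from 487 to 1213 CPM and Nrxn3 from 135 to 298 CPM. Nrxn2 (chromosome 1, 221801524 to 221908047, 22 exons) was at 863, 891, 871, 890 and 868 CPM in NT females (mean 876 ± 13.1, n = 5), the tightest group of any of the 7 genes, and ranged from 487 to 862 CPM (median 710) in NT males. All 7 males were below all 5 females, although the highest male (862) and the lowest female (863) nearly met. The log2 fold change of -0.41 (SE 0.148) had an edgeR adjusted p of 0.0593, and the exact permutation p was 0.00253. Over both rearing conditions Nrxn2 passed (-0.27, SE 0.0987, adjusted p = 0.0400), a call that leaving out any 1 of 15 rats ended (adjusted p 0.0506 to 0.0668).

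Nrxn3 (chromosome 6, 112133204 to 114067564, 23 exons) was at 269, 298, 280, 223 and 276 CPM in NT females (mean 269 ± 28.0) and ranged from 135 to 265 CPM, median 219, in NT males. Of the males 5 of 7 were below all females. The log2 fold change of -0.41 (SE 0.144, edgeR adjusted p = 0.0544) did not pass, and the exact permutation p was 0.0152. In LB rats neither neurexin gene passed by sex (Nrxn2 -0.14, SE 0.131; Nrxn3 -0.06, SE 0.128; adjusted p 0.605 and 0.834 in edgeR), with 95% intervals of -0.41 to 0.13 and -0.33 to 0.20. Among the other genes, Cbln1 followed Nrxn2 most closely (r = 0.79, rho 0.79, adjusted permutation p = 0.000105), and r was 0.69 when groups were centred.

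Limited bedding was compared with normal rearing over all rats, in males and in females. None of the 7 genes passed in any of these by edgeR, DESeq2 or limma-voom, where edgeR called 0.00826%, 0% and 0.00826% of all genes, and 0, 1 and 0 of the 7 were under an unadjusted p of 0.05 in edgeR. The single one was Cbln1 in males, given above. In females the 7 log2 fold changes lay between -0.43 (Cbln3, SE 0.278) and 0.27 (Cbln4, SE 1.43), and in males between -1.27 (Cbln4, SE 0.942) and 0.49 (Cbln1). For Cbln2 and Cbln4 the errors were too wide to read a direction: the 95% intervals in males were -2.24 to 1.14 and -3.22 to 0.68. The interaction of sex and rearing called 0% of genes, with 570 under an unadjusted p of 0.05, and 2 of the 7 genes (Cbln1 and Cbln3) were among these.

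Partner genes of cerebellin synapses, a list of 23 of which 20 were in the table and 19 were tested, included 4 that were higher in NT males (C1ql1, C1ql3, Grik4 and Lrrtm4) and 0 that were lower, where 10.1% and 5.08% of all genes tested were. Over both rearing conditions 5 were higher, with Mdga2 added, and 3 lower (Clstn3, Grik2 and Nlgn2), beside 16.9% and 12.4% of all genes. The median log2 fold change of the 19 was -0.12 in NT rats, beside 0.03 over all genes. None passed by edgeR between LB males and females, where 4 of 19 were under an unadjusted p of 0.05, beside 2053 of 12107 over all genes. None passed between LB and NT rats either, where 2, 2 and 0 were under it over all rats, in males and in females, beside 1804, 1211 and 961 of all genes. Neo1, Lrrtm1 and Ptprd were not analysed here.

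C1ql3, a secreted relative of the cerebellins, was 4.05 higher on the log2 scale in NT males than in NT females (SE 1.06, edgeR adjusted p = 0.0176), and 5 of 7 NT males were above all 5 NT females. Lrrtm4, a postsynaptic neurexin ligand, was 2.30 higher (SE 0.730, adjusted p = 0.0360) and was above all females in 3 of 7 males. C1ql1, made by the climbing fibre neurons of the inferior olive, and Grik4, a kainate receptor subunit gene, were above all 5 females in all 7 NT males (1.09, SE 0.302, adjusted p = 0.0213; 0.75, SE 0.204, adjusted p = 0.0197). In the sex difference over both rearing conditions, Clstn3, which encodes the postsynaptic adhesion protein calsyntenin, was at -0.50 (SE 0.132, adjusted p = 0.00747) and Nlgn2, the neuroligin gene of inhibitory synapses, at -0.46 (SE 0.136, adjusted p = 0.0154).

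Marker genes of other cells moved with the members. The granule cell list, 9 of 9 genes in the table, summed to 7379 to 8162 CPM in NT females, 2241 to 6861 in NT males, 4399 to 7900 in LB females and 4276 to 7104 in LB males, so NT males lay below NT females without overlap. Over 27 rats the score of this list had r = 0.74 with Cbln1, 0.83 with Cbln3 and 0.81 with Nrxn3, but -0.12 with Grid1. The deep nucleus list (10 of 10 genes) summed to 572 to 658 CPM in NT females and to 614 to 4273 in NT males, 625.4 to 998 in LB females and 643 to 1002 in LB males, and its score had r = 0.83 with Cbln2 and 0.70 with Cbln4. The forebrain list (5 of 6 genes) summed to 441 to 495, 251.1 to 523, 381 to 665 and 437 to 534 CPM in the same order, and its score had r = 0.71 with Cbln2 and 0.74 with Cbln4. Lhx2, a gene of this list, gave at most 45.2 CPM to these sums, and alone had r = 0.85 and 0.86. The r of the score without Lhx2 was not computed. Rat 6112, with the most Cbln2, had a forebrain score of -0.27, and rat 3111 of -0.22. The cholinergic list (5 of 5 genes) summed to at most 0.631 CPM in NT females, 217 in NT males, 3.31 in LB females and 12.1 in LB males, and its score had r = -0.84 with Cbln1. The oligodendrocyte list (8 of 8 genes) summed to 7683 to 11790 CPM in NT females, 11190 to 52700 in NT males, 11330 to 40960 in LB females and 14010 to 43690 in LB males, and its score had r = -0.61 with Cbln3. The list for oligodendrocyte precursors (5 of 5 genes), at 126 to 151 CPM in NT females and 182 to 414 in NT males, did not overlap between them, and its score had r = -0.74 with Nrxn3. Microglial genes (8 of 8) summed to 95.3 to 121 CPM in NT females and 112 to 255 in NT males, with r = 0.64 for Cbln2, -0.66 for Cbln3 and -0.70 for Nrxn3. Meningeal genes (8 of 8) summed to 90.5 to 133 CPM in NT females and 108 to 166 in NT males, and to 60.3 to 112 CPM in females and 117.5 to 180 in males of the LB rats, so that the LB sexes did not overlap, with r = 0.50 for Cbln2 and 0.44 for Cbln4. These r values are descriptions over rats that share groups, and part of the deep nucleus list (Tbr1 and Meis2) is also expressed in the forebrain.

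**Figure D4:**
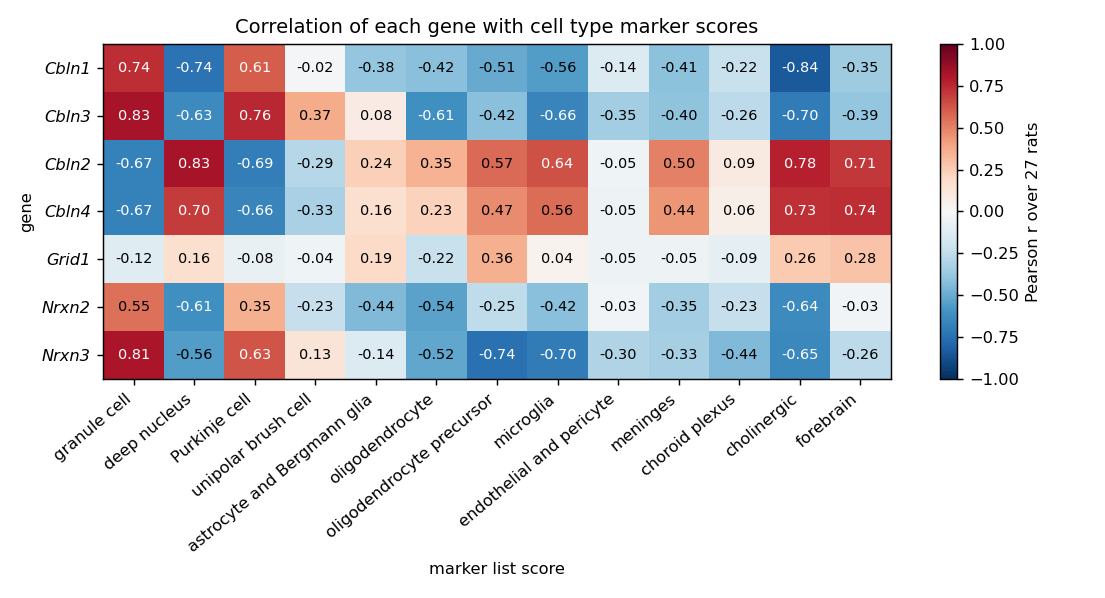
Pearson's r over 27 rats between the log2 CPM of each gene (rows) and the score of each marker list (columns), from -1 (blue) to 1 (red). Cbln1, Cbln3 and Nrxn3 share positive values with granule and Purkinje cell lists, Cbln2 and Cbln4 have the opposite pattern with high values for the deep nucleus, cholinergic and forebrain lists, and Grid1 is between -0.22 and 0.36 for all lists.

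The males named next, rich in Cbln2 and Cbln4, differed in Lhx2 and Slc17a6, but had more Meis2 than any female (at most 3.48 CPM). Meis2 was at 99.7 CPM in rat 6112, 69.1 in 6111, 49.5 in 122 and 38.25 in 3113. It was at 37.3 CPM in 7122, 29.4 in 9123, 21.9 in 3111 and 9.68 in 121. LB male 9122 did not share this. It was above every female in Cbln2 (2.40 CPM) and Cbln4 (3.02 CPM) but had 0.96 CPM of Meis2. NT male 4113, poor in Cbln2 and Cbln4, had 8.40 CPM. Rats 3113, 6111, 122, 9123 and 7122 had 45.2, 39.8, 29.9, 17.4 and 14.4 CPM of Lhx2. Rat 6112, with the most Cbln2, had 6.39 CPM of Lhx2 but 380 CPM of Slc17a6, 442 CPM of Spp1 and 131 CPM of Slc5a7, the choline transporter of cholinergic neurons. Rat 3111 likewise had 2.69 CPM of Lhx2 and 59.9 CPM of Slc17a6. Rat 7122 was high in both, with 74.9 CPM of Slc17a6. NT male 4113, in contrast, had 30.1 CPM of Slc17a6 with 0.733 CPM of Cbln2 and 0.267 CPM of Cbln4. The 3 males with the least Cbln2, 7121, 4111 and 9121, had 0.133, 0.420 and 0.237 CPM of Lhx2 and 1.26, 0.280 and 0.475 CPM of Slc17a6. Over 27 rats Lhx2 had r = 0.85 with Cbln2 and 0.86 with Cbln4, and Meis2 had 0.90 and 0.85. For Tbr1 the values were 0.75 and 0.78, and for Spp1 0.37 and 0.23. With a covariate made of the deep nucleus score minus the granule cell score, none of the 7 passed by edgeR in NT rats, where 3 of all 12107 genes did, against 1840 without it. The log2 fold changes by sex were then -0.18 for Cbln1, -0.42 for Cbln2, -0.90 for Cbln3 and 1.48 for Cbln4 (adjusted p 0.857, 0.945, 0.821 and 0.887). With the meninges score as a covariate 8 of all genes and none of the 7 passed, and the values were -0.53, 3.21, -1.49 and 5.58 in the same order (adjusted p 0.142, 0.242, 0.0730 and 0.0922). The part of tissue composition in the sex differences of the 7 genes was not tested further, and these covariates are themselves measured from the same libraries.

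**Figure D5:**
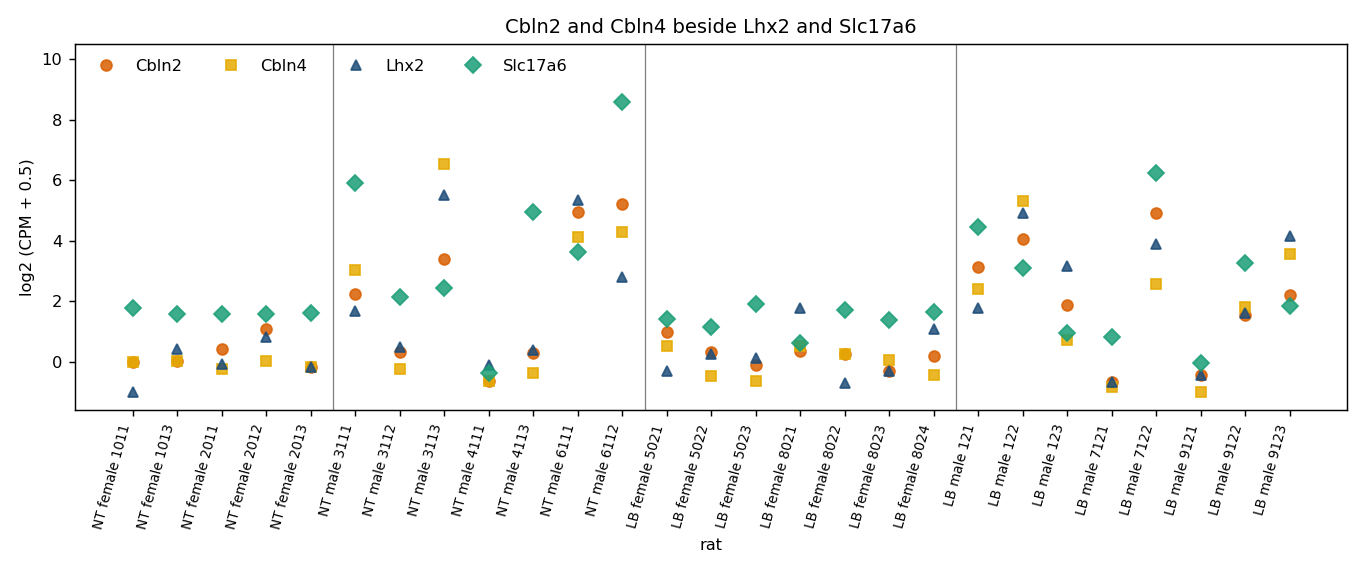
Cbln2, Cbln4, Lhx2 and Slc17a6 in each rat as log2 of CPM plus 0.5, with the 4 groups separated by vertical lines. In females Cbln2 and Cbln4 stay at or below 1.63 CPM; among males they are high both in rats with high Lhx2 (6111, 3113, 122) and in rats with high Slc17a6 (6112, 3111) or with both high (7122), and low in rat 4113, which has 30.1 CPM of Slc17a6.

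Cbln4 differed widely within some sets of shared title numbers and little within others. In the set of NT males 3111 to 3113, Cbln4 ran from 0.344 to 92.5 CPM, and in the 3 sets of LB males (121 to 123, 7121 and 7122, and 9121 to 9123) from 1.16 to 39.3, from 0.0663 to 5.45 and from 0 to 11.3 CPM. The set of NT males 4111 and 4113 was low in both (0.140 and 0.267 CPM) and that of 6111 and 6112 high in both (16.8 and 19.1 CPM). Cbln1 separated the sets of LB females, at 1845 to 2557 CPM in rats 5021 to 5023 and 1578 to 1729 CPM in rats 8021 to 8024. With the set as a block in limma-voom, 0 of the 7 genes passed in NT rats and 1 over both rearing conditions (Cbln3), where 2 and 1023 of all genes did.

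The genes whose log2 CPM followed each member most closely over 27 rats also differed between the pairs. For Cbln1 they were RGD1307461, Tmem51 and Grm4 (r = 0.95, 0.95 and 0.94), of which Grm4 encodes a glutamate receptor of parallel fibre terminals. For Cbln3 they were Kcnj12, Zic1 and Kbtbd11 (0.95, 0.95 and 0.94), and Zic1 is a transcription factor gene of granule cells. For Cbln2 they were Adra2a, Nrsn2 and Crh (0.94, 0.92 and 0.92), Crh being the gene of corticotropin-releasing hormone, and for Cbln4 Sertm1, Ntsr1 and Gabra5 (0.93, 0.93 and 0.91), the latter pair encoding a neurotensin receptor and a GABA receptor subunit. Grid1 was followed by Nlgn3, a neuroligin gene, Rhobtb2 and Kcnab2 (0.90, 0.90 and 0.89), Nrxn2 by Map7d1, Crmp1 and Sf3a2 (0.90, 0.89 and 0.89), and Nrxn3 by Kcnd2, a potassium channel gene, Ppm1d and Dfna5 (0.90, 0.86 and 0.86). After centring of the groups these r values lay between 0.80 and 0.93.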

How the data were processed

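Messenger RNA of cerebellar interpositus punches was sequenced from 27 rats in 4 groups of sex and rearing, each table column being matched to its rat by the sample title. Per the labels, the authors aligned reads to rn6 with STAR 2.5.2b and counted them on genes with featureCounts (Subread 1.5.1). They deposited raw counts for 17321 genes. The annotation release and the handling of strand and multiply mapped reads are not given in the sources used here. No member shared exon bases with another gene, yet the cerebellins are related genes.

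Differential expression was computed with edgeR 4.0.16 (R 4.3.3): TMM normalization, filterByExpr (minimum count 10, minimum total count 15; 12107 genes), and 1 robust quasi-likelihood model of the 4 groups with a prior count of 0.125. Adjustment of p values followed Benjamini and Hochberg across the 12107 genes, at a threshold of 0.05. The SE is the size of the log2 fold change divided by the square root of F. CPM used TMM library sizes, and log2 CPM a prior count of 2. For single values an exact permutation test, two-sided, was run (scipy 1.17.1), and the 21 correlations by 100000 permutations. Marker scores are means of centred log2 CPM over the tested genes of a list. Where nothing says that rats are of separate litters, p-values measure the spread between these rats. Total counts were 11836684 to 24169170 per rat. Among 80 pairs of rats within a group 0 had identical counts. On simulated data with 200 genes changed by a log2 value of 1 among 12107, the sex comparison recovered 65.5% of them in NT and 80% in LB rats, and the rearing comparison 69.5% in males and 68% in females.

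The members and all gene lists were chosen with earlier results of these data known. The genes named are the 7 members, the partners past the threshold, the 3 genes most like each member, Eif2s3y and marker genes. Alternatives were DESeq2 1.42.0, limma-voom (limma 3.58.1), other normalizations and filters, only the groups compared, a block for title sets, marker scores as covariates and leaving out each rat. The cholinergic covariate, the removal of 2 NT males, the exact permutation tests and the ratio of Cbln3 to Cbln1 were added after seeing the data. Some genes of the partner and marker lists are not reported here, and the counts and scores leave them out.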

Additional observations from a re-analysis of the deposited data

Results flagged for a closer look

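In each of the 28 combinations of a gene and a group, the highest and the lowest rat were compared with the rest by Dixon's criterion on CPM, the gap to the nearest rat over the range of the group. Normally distributed values pass it by chance in about 1 in 20 groups, or 1.4 of 28. Some groups were skewed to high CPM (Cbln4 in NT males, mean 19.55, median 7.72), so the number of passes cannot be compared with that rate. The criterion was not applied to log2 CPM. It was passed 5 times, in each case by the highest rat. For Cbln4, NT male 3113 was at 92.5 CPM (next rat 19.1 CPM, gap 0.795 of the range) and LB male 122 at 39.3 CPM (next 11.3 CPM, gap 0.714). Both rats were also high in Lhx2 (45.2 and 29.9 CPM). For Cbln3, NT male 3112 was at 353 CPM (next 195 CPM, gap 0.657), the male of this group with the most Gabra6 (1153 CPM). For Nrxn2, LB female 5022 was at 1213 CPM (next 876 CPM, gap 0.586), a rat that also had the highest Cbln1 (2557 CPM) and the lowest Gabra6 (193 CPM) of its group. For Cbln2, LB female 5021 was at 1.49 CPM (next 0.779 CPM, gap 0.597), which rests on 24 counts. Causes were not tested.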

How the results depend on the processing

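No paired analysis was possible because the labels number each rat on its own and give no replicate numbers shared between groups. A block for the sets of rats with neighbouring title numbers, fitted in limma-voom (consensus correlation 0.17), left 0 of the 7 genes called by sex in NT rats and 1 over both rearing conditions. Of the 5 genes called by sex over both rearing conditions, 3 were called with upper-quartile normalization and 3 with limma-voom, beside 3496 and 3100 of all 12107 genes. With a filter of 10 counts in every rat (which removes Cbln2 and Cbln4) 2 were called, beside 3104 of 10786 genes. With the deep nucleus minus granule cell score, the meninges score or the cholinergic score as a covariate 0 were called, which left 4, 5 and 8 of all 12107 genes called. Of the 4 called by sex in NT rats, 2 were called with limma-voom and 2 with that filter, beside 1230 and 1586 of all genes. With only the groups compared, 2 were called beside 1353 of 11748 genes, and Cbln4 was not tested because it did not meet the filter. Without NT males 3113 and 6112, 1 was called beside 572 of all genes. With each of these 3 covariates 0 were called, which left 3, 8 and 3 of all genes called. With the meninges score the log2 fold changes by sex over both rearing conditions were -1.13 for Cbln3 and 4.86 for Cbln4, against -0.99 and 4.67 without it. The count between LB males and LB females was 0, and 2 in DESeq2, beside 30 and 408 of all genes. Leaving out each rat in turn gave counts of 3 to 6 over all rats, 2 to 6 in NT and 0 to 1 in LB, and 0 in every treatment comparison and the interaction. The causes were not tested. Over alternatives that kept all rats, the adjusted p of the NT sex difference ran from 0.0146 to 0.857 for Cbln1, from 0.00202 to 0.945 for Cbln2, from 0.000187 to 0.821 for Cbln3 and from 0.00035 to 0.887 for Cbln4.

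Signs changed for values that had not passed, with 1 exception, Cbln2 in NT rats, whose log2 fold change by sex was -0.42 with the deep nucleus minus granule cell score and -0.59 with the cholinergic score (adjusted p 0.945 and 0.876). With the deep nucleus minus granule cell score, the values were 0.09 for Cbln1 and 0.07 for Nrxn3 by sex in LB rats, 0.62 for Cbln2 in LB against NT males, 0.07 for Cbln1, -0.35 for Cbln4 and 0.0016 for Nrxn2 in LB against NT females, and 1.32 for Cbln2 and 0.02 for Grid1 in the interaction. With the cholinergic score they were 0.04 for Cbln1 and 0.02 for Nrxn3 by sex in LB rats, 0.62 for Cbln2 in all LB against all NT, 1.83 for Cbln2 in LB against NT males, 0.04 for Cbln1 and -0.12 for Cbln4 in LB against NT females, and 2.40 for Cbln2 and 0.15 for Grid1 in the interaction. With the meninges score they were 0.08 for Cbln1 and 0.03 for Nrxn3 by sex in LB rats, 0.02 for Cbln3 in all LB against all NT, and 0.23 for Cbln2 and 0.08 for Grid1 in LB against NT females. The title set block gave -0.01 for Cbln4 in LB against NT females. Without NT males 3113 and 6112, all LB against all NT gave 0.03 for Cbln2, 0.48 for Cbln4 and -0.0002 for Nrxn3, LB against NT males gave 0.16 for Cbln2 and 0.69 for Cbln4, and the interaction gave 0.26 for Cbln2, 0.43 for Cbln4 and 0.01 for Grid1.

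Leaving out each rat in turn, the sign changed in 11 values, none of them called. Grid1 by sex in NT rats ran from -0.31 to 0.05 and Cbln1 by sex in LB rats from -0.15 to 0.0023. In all LB against all NT, Cbln3 ran from -0.15 to 0.09 and Cbln4 from -1.07 to 0.20 (the last without NT male 3113). In LB against NT males, Cbln2 ran from -1.25 to 0.07 (without 6112) and Cbln4 from -2.41 to 0.13 (without 3113). In LB against NT females, Cbln1 ran from -0.12 to 0.01, Cbln2 from -0.36 to 0.38, Grid1 from -0.31 to 0.02 and Nrxn2 from -0.15 to 0.02. The interaction of Cbln2 ran from -1.15 to 0.17. All 42 values of the correlations under another scaling or prior count kept their sign and moved by at most 0.0934. Low counts limit Cbln2 and Cbln4 in females, where the 2 genes had between 2 and 32 counts per rat.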

Other observations

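The 3 positive correlations of Cbln1 seen in males did not all hold their sign in LB females. Over the 7 LB females r was -0.42 with Cbln3 and -0.75 with Nrxn3, against 0.88 with Nrxn2, whereas NT males had 0.74, 0.60 and 0.54 and LB males 0.72, 0.51 and 0.86 for the same pairs. Rat 5022 had the highest Cbln1 (2557 CPM) and Nrxn2 (1213 CPM) of the LB females, and the lowest Cbln3 (223 CPM) and Nrxn3 (179 CPM). The r values without this rat were not computed. The difference between groups was not tested.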
